A study of Panax notoginseng with 12 samples.

Results

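Auxin is the plant hormone that sets the growth and branching of roots, and the 212 loci described here are the genes of Panax notoginseng whose protein database description names auxin or indole-3-acetic acid, its main natural form, or one of the families that carry, conjugate or perceive it. The rule that picked them from the 146330 loci of the assembled transcriptome reads only the text of that description. It was set with earlier results of these data known. In Arabidopsis, where the pathway is best known, auxin enters cells through AUX1/LAX influx carriers and leaves through PIN efflux carriers, and WAT1 moves it across the vacuolar membrane. Auxin then joins the F-box receptors TIR1 and AFB with Aux/IAA repressors, the repressors are degraded, and the auxin response factors (ARF) they had held back act on target genes such as SAUR and GH3. GH3 enzymes couple auxin to amino acids, which closes a feedback loop, and YUCCA monooxygenases make the last step of auxin synthesis.

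RNA-seq was performed on P. notoginseng roots in 4 groups of 3 libraries each, which differ in the nitrogen supplied. These are a control (CK) without ammonium or nitrate treatment, 15 mM ammonium (15A), 15 mM nitrate (15N), and 15 mM of both (15AN). By the study's methods, the salts were ammonium sulfate in 15A, calcium nitrate in 15N, and ammonium nitrate in 15AN. Calcium and sulfate can therefore differ between the groups too. The amount of nitrogen also differs, as the paper describes CK as without nitrogen and 15AN received 15 mM of each form. The effects of these differences cannot be told apart from those of the nitrogen form. The plants were 2-year-old seedlings in hydroponic culture, kept in a complete solution for 1 week before the treatments, and the roots of 3 seedlings per treatment were harvested on day 3. The sample labels instead describe seedlings 3 days old without treatment, so the groups used here follow the titles and the treatment label. Libraries were made from pooled RNA. Whether each library had its own pool is not clear, so the p-values measure the spread between these libraries, which may be technical. In pooled roots, a change in the share of a cell type and a change of RNA per cell cannot be told apart.

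The values are FPKM (fragments per kilobase of transcript, scaled to a common number of sequenced reads) as the authors normalized them, and read counts were not used here. The sum of FPKM over all loci lay between 1420310 and 1517711 in CK, between 2042250 and 2593466 in 15A, between 2002096 and 2174581 in 15N, and between 1776098 and 1800638 in 15AN. The groups thus differ in a total that each gene's value depends on. Of the 212 auxin genes, between 139 and 141 had a value above 0 in a CK library, between 123 and 130 in a 15A library, 124 or 125 in a 15N library, and between 126 and 131 in a 15AN library. The share of all loci above 0 in each library is not given here, so these counts show nothing particular to auxin genes. One library stood apart in its markers, the first replicate of 15A. The summed FPKM of 47 loci of green tissue, of which 37 were above 0, was 1580 in it and 481 and 501 in the other 15A libraries, while CK had 1130 to 1210, 15N had 491 to 549, and 15AN had 459 to 505. All CK libraries thus also lay above those of 15N and 15AN and above the other 15A libraries. For 5 loci of Casparian strip membrane proteins, which mark the root endodermis, the summed FPKM was 3.19 in the first replicate of 15A and 15.5 and 16.9 in the other 15A libraries. The same sum was 8.21 to 9.82 in CK and 11.8 to 12.9 in 15N, and it reached 14.1 in 15AN. The part of these markers in the results below was not tested, and the counts without that library are given below for the auxin genes as a whole.

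The auxin genes fall into 14 role classes, the largest being SAUR proteins (48 genes), ARF (42), WAT1-related transporters (42), and Aux/IAA repressors (19). Of the 212, 72 reached a mean of 5 FPKM in at least 1 group and were tested, and 140 did not. Of those 140, 52 were listed at 0 in every library and 88 had some signal, with means over the 12 libraries of up to 4.69 FPKM. Among the classes of 10 or more genes, the receptors most often reached that level, with 9 of 12 genes tested, followed by the Aux/IAA repressors with 11 of 19 and the ARF with 20 of 42. Only 6 of 48 SAUR and 8 of 42 WAT1-related genes passed, and 22 SAUR and 14 WAT1-related genes were listed at 0 in all 12 libraries. None of the 4 YUCCA genes passed, and the most abundant of them, XLOC_104665, had a mean of 1.31 FPKM. The 1 indole-3-acetate methyltransferase, an enzyme that methylates auxin, was also below the filter with 0.322 FPKM. The genes below the filter summed to between 103 and 111 FPKM in each CK library. In the treated libraries this sum was lower without overlap, between 60.0 and 60.3 with ammonium, between 50.6 and 55.1 with nitrate, and between 65.1 and 73.1 with both. The same sum over all loci below the filter is not given here, so the difference is not shown to be particular to auxin genes.

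**Figure D1:**
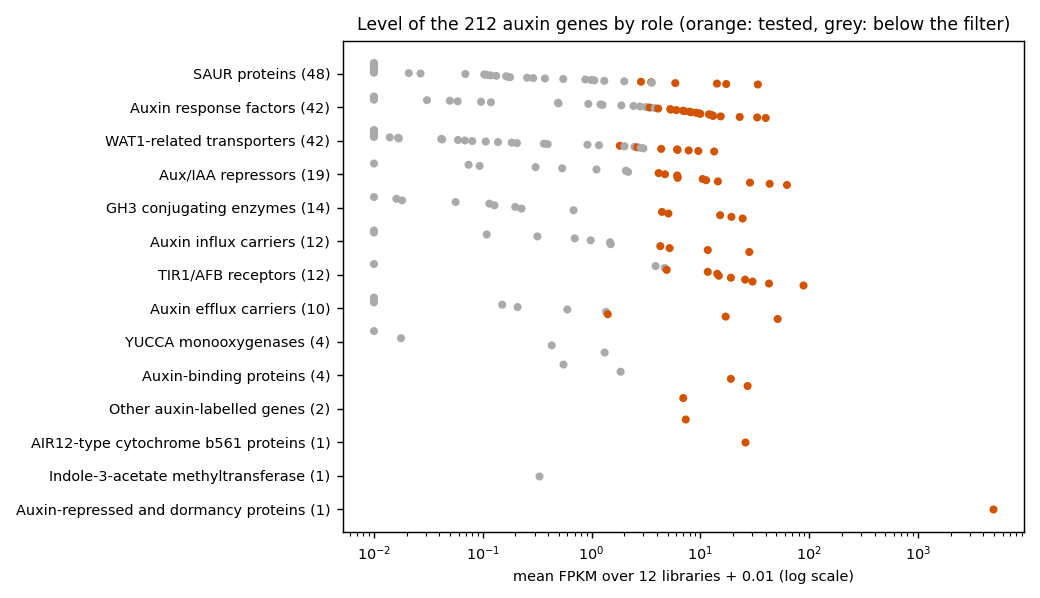
Mean FPKM over the 12 libraries of each of the 212 auxin genes, plotted as FPKM + 0.01 on a log axis by role class, with genes tested in orange and genes below the filter in grey. The auxin-repressed protein gene lies at 4950 FPKM, and no other member passes 88.9 FPKM.

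On this scale, which is set per length, one gene lay far above all others. XLOC_062625, annotated as an auxin-repressed protein, a small protein related to dormancy-associated proteins whose transcript auxin represses in strawberry, had 4780.0, 5220.0, and 4950.0 FPKM in CK, 4940.0, 3910.0, and 3780.0 in 15A, 4430.0, 4360.0, and 4510.0 in 15N, and 6390.0, 6060.0, and 6120.0 in 15AN. All 3 libraries of 15AN lay above the other 9. The log2 fold change was 0.31 ± 0.11 (SE, adjusted p = 0.036) in 15AN when compared to CK and 0.57 ± 0.11 (SE, adjusted p = 0.0025) when compared to 15A, under the threshold of 1. The paper instead reports an auxin-repressed gene, DRM1/ARP, as down-regulated in 15N and 15AN by RNA-seq and qRT-PCR. Whether that gene is this locus is not established here. The next most abundant members were the receptor XLOC_081499 (88.9 FPKM on average over the 12 libraries), the repressor XLOC_027291 (62.6), the efflux carrier family gene XLOC_141150 (51.4), the repressor XLOC_007747 (43.4), and the receptor XLOC_023984 (42.8). The most abundant ARF, XLOC_053613, had 39.9.

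To find which auxin genes changed with the nitrogen supplied, log2(FPKM + 1) was compared between groups in limma, with p-values adjusted over all 22592 loci tested, and a gene was called at an adjusted p under 0.05 with a log2 fold change over 1 in size. The added 1 makes fold changes of low genes smaller than their ratio of FPKM. In 15A compared to CK, 24 of the 72 auxin genes were down-regulated (33.3%, against 6.82% of all loci tested) and 5 were up-regulated (6.94%, against 7.49%). In 15N, 22 were down-regulated (30.6%, against 7.64%) and 5 up-regulated (6.94%, against 6.85%). In 15AN, 14 were down-regulated (19.4%, against 6.93%) and 4 up-regulated (5.56%, against 5.3%). The median log2 fold change of the 72 was -0.37, -0.38, and -0.29 in 15A, 15N, and 15AN. The medians over all loci tested were 0.08, 0.08, and 0.07. The share of auxin genes called lower was thus above the share of all loci in each comparison with CK, while the share called higher was close to it. The same 3 CK libraries enter all 3 comparisons.

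**Figure D2:**
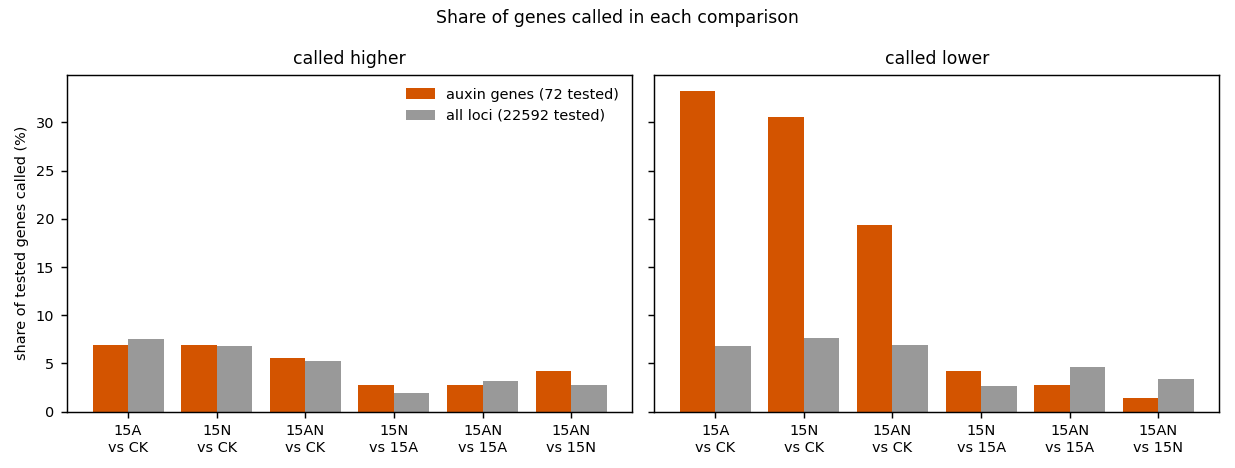
Share of the 72 tested auxin genes (orange) and of all 22592 tested loci (grey) called higher (left) and lower (right) in 6 comparisons of groups of 3 libraries, in percent. The bars of auxin genes called lower reach 33.3% in 15A, 30.6% in 15N, and 19.4% in 15AN compared to CK, against 6.82% to 7.64% of all loci. These bars include 8, 7, and 10 genes that passed the filter through CK alone and had to be lower elsewhere.

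The filter and the scale bear on these counts. Of the 72 genes, 44 reached 5 FPKM in all 4 groups, 4 only outside CK, and 12 through CK alone. A gene of the last kind had to be lower elsewhere, and 8, 7, and 10 of these 12 were among the genes down-regulated in 15A, 15N, and 15AN. The 12 are XLOC_000945, XLOC_027619, and XLOC_144598 of the ARF, XLOC_022171 of the repressors, XLOC_027042, XLOC_055333, and XLOC_085716 of the WAT1-related genes, XLOC_080242, XLOC_121857, and XLOC_123577 of the carriers, XLOC_009659 of the GH3 genes, and XLOC_072942 of the SAUR genes, and for these the direction against CK is no result. With a filter on the mean over all 12 libraries, chosen after seeing the data, 59 auxin genes remained, among them 2 of those 12 (XLOC_027619 and XLOC_080242). Of the 59, 18 (30.5%, against 4.94% of all loci), 16 (27.1%, against 5.64%), and 6 (10.2%, against 5.13%) were down-regulated in 15A, 15N, and 15AN. When every library was scaled to the same total FPKM, the median of all loci shifted to -0.50, -0.41, and -0.20 in these comparisons. The counts then became 35 down and 0 up in 15A (7 were up at an unadjusted p under 0.05 in limma), 35 down and 0 up in 15N (5 up at an unadjusted p under 0.05), and 21 down and 1 up in 15AN. All loci called lower were then 19.7%, 16.5%, and 10.5%. Relative to the median of all loci, the median of the auxin genes was -0.45, -0.46, and -0.35 as deposited and -0.44, -0.48, and -0.37 at equal totals. Without the first replicate of 15A, 23 were down-regulated and 6 up-regulated in 15A, 3 were higher and 3 lower in 15AN against 15A, and the counts of the other comparisons were as before. With 5 added in place of 1 before the log2, the shares called lower were 15.3% in 15A (3.43% of all loci), 15.3% in 15N (4.02%), and 4.17% in 15AN (3.84%), so that in 15AN the share was close to that of all loci.

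The receptors come first in the pathway. Of the 9 TIR1/AFB genes tested, F-box proteins that bind auxin, 1 was up-regulated and 2 down-regulated in 15A, and 1 was up-regulated and 3 down-regulated in 15N. The shares of all loci given above are the background of each class, and with 9 genes a single call is 11.1%. None was called in 15AN when compared to CK (0 of 9 in limma, with 3 higher and 1 lower at an unadjusted p under 0.05). XLOC_008244 (C4918463:9587-15753), annotated as TIR1-like, had 16.2, 16.2, and 16.5 FPKM in CK, 8, 6.59, and 6.04 in 15A, 7.63, 6.25, and 6.15 in 15N, and 17.6, 17.7, and 16.1 in 15AN. The libraries of 15A and 15N all lay far below those of CK, while those of 15AN lay at the level of CK and overlapped with them. The log2 fold change was -1.14 ± 0.10 (SE, adjusted p = 1.1e-05) in 15A, -1.18 ± 0.10 (SE, adjusted p = 9.0e-06) in 15N, and 0.07 ± 0.10 (SE, adjusted p = 0.64) in 15AN when compared to CK. In the direct comparisons, it was 1.21 ± 0.10 (SE, adjusted p = 1.9e-05) in 15AN against 15A and 1.24 ± 0.10 (SE, adjusted p = 2.2e-05) in 15AN against 15N. The gene next to it, XLOC_008245 (C4918463:16077-21926, 324 nt away on the same strand), is also annotated as TIR1-like and had 12.2, 13.3, and 13.5 FPKM in CK, 15.9, 16.1, and 14.1 in 15A, 14.2, 13.9, and 14.6 in 15N, and 15.7, 17.8, and 16.8 in 15AN. This neighbour was not called in any comparison, and its log2 fold change was 0.22, 0.12, and 0.34 in 15A, 15N, and 15AN.

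Other TIR1-like genes moved in opposite directions. XLOC_023984 had 23.9, 23.9, and 23.6 FPKM in CK, 59.7, 52.5, and 49 in 15A, 49.8, 50.6, and 50.6 in 15N, and 43.7, 43.9, and 42.9 in 15AN. All treated libraries lay above all CK libraries. It was up-regulated in 15A (log2 fold change 1.14 ± 0.07 SE, adjusted p = 7.0e-07) and in 15N (1.05 ± 0.07 SE, adjusted p = 1.2e-06), and had 0.84 ± 0.07 (SE, adjusted p = 7.4e-06) in 15AN, under the threshold of 1. XLOC_123567 showed the opposite order, with 33.7, 33.6, and 35.4 FPKM in CK, 15.2, 11.3, and 11 in 15A, 12.8, 12.3, and 11.5 in 15N, and 17.7, 17.9, and 16.3 in 15AN. Every treated library was below every CK library. Compared to CK, the log2 fold change was -1.40 ± 0.11 (SE, adjusted p = 3.5e-06) in 15A, -1.42 ± 0.11 (SE, adjusted p = 3.2e-06) in 15N, and -0.95 ± 0.11 (SE, adjusted p = 6.5e-05) in 15AN. XLOC_007196 had 10.5, 11.6, and 11.6 FPKM in CK, 24.7, 20.6, and 21.5 in 15A, 13.3, 13.3, and 14.5 in 15N, and 10.8, 9.56, and 9.34 in 15AN. It was highest in the 3 libraries of 15A, and it was lower in 15AN than in 15A (-1.09 ± 0.09 SE, adjusted p = 1.1e-05).

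XLOC_061475, the lowest of the receptors tested, had 6.27, 5.72, and 7.17 FPKM in CK, 5.4, 3.75, and 4.63 in 15A, 1.07, 1.34, and 5.29 in 15N, and 5.61, 7.12, and 5.48 in 15AN. The third of its 15N libraries lay with the other groups and apart from the other 15N libraries, and its region on scaffold19530 overlaps another locus. The call in 15N compared to CK (-1.24 ± 0.35 SE, adjusted p = 0.014) was lost without the first or the second 15N library (log2 fold change -0.94 and -1.03). The call in 15AN against 15N (1.17 ± 0.35 SE, adjusted p = 0.032) was lost without any one library of 15AN (1.07 to 1.23) and without the first or the second 15N library (0.87 and 0.96). The most abundant receptor, XLOC_081499, is annotated as AFB2-like and had 86.3, 113, and 88.4 FPKM in CK, 106, 89, and 80.1 in 15A, 79.3, 71.2, and 75.6 in 15N, and 92.2, 90.2, and 95.6 in 15AN. The 15N libraries lay below all others and the other groups overlapped, and the gene was not called in any comparison.

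**Figure D3:**
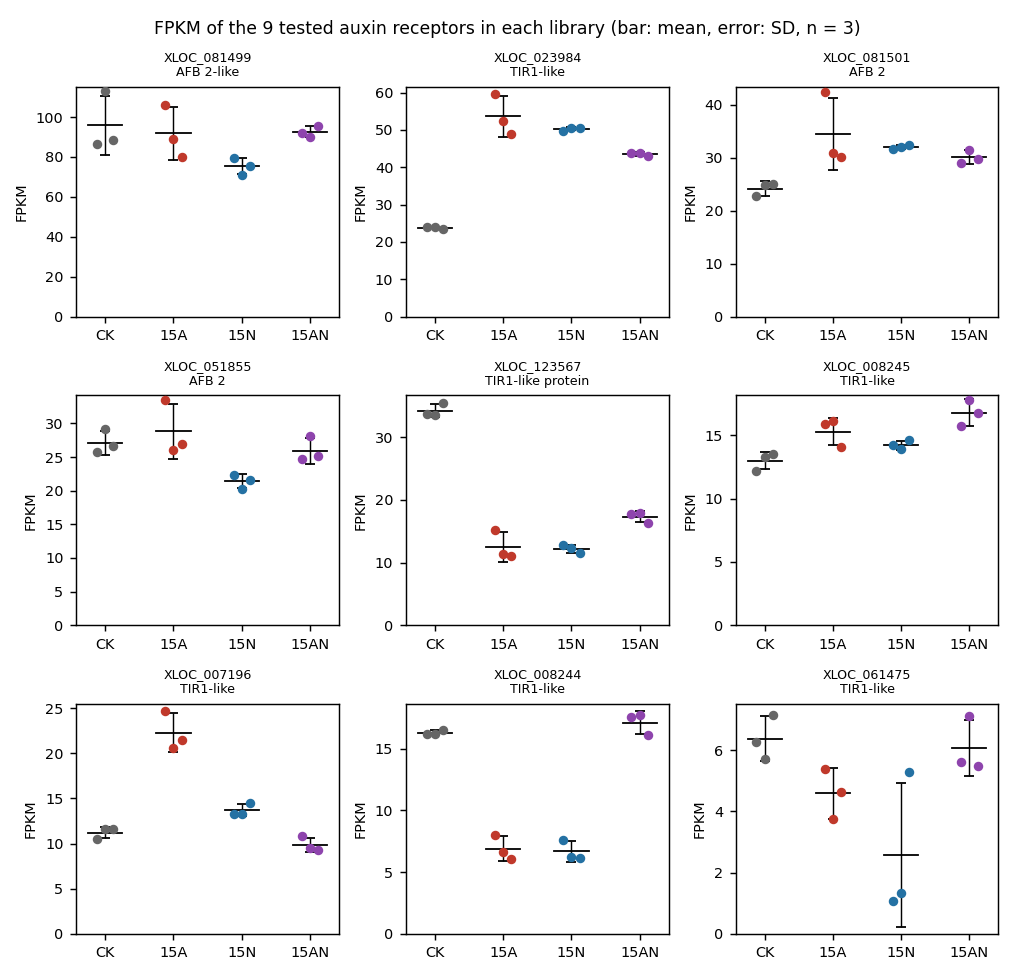
FPKM of the 9 tested auxin receptor genes in each library (points), with the mean (bar) and the SD (error bar) of the 3 libraries of CK, 15A, 15N, and 15AN, on a separate axis from 0 for each gene. XLOC_008244 has means of 16.3 in CK and 17.1 in 15AN against 6.88 in 15A and 6.68 in 15N, while XLOC_023984 rises from 23.8 in CK to 53.7 in 15A and 50.3 in 15N.

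The Aux/IAA repressors, which the receptors mark for degradation, were the class with the lowest median in 15A among those with more than 1 gene tested. Of the 11 tested, 6 were down-regulated in 15A and 0 up-regulated (1 higher at an unadjusted p under 0.05 in limma), 5 were down-regulated and 1 up-regulated in 15N, and 1 was down-regulated and 2 up-regulated in 15AN. Their median log2 fold change was -1.23, -0.98, and -0.61. XLOC_022171, annotated as IAA26-like, had 9.2, 9.78, and 9.78 FPKM in CK, 2.27, 2.57, and 2.66 in 15A, 1.74, 0.901, and 1.15 in 15N, and 3.25, 3.37, and 2.89 in 15AN. Every CK library was higher than every treated one, and the gene passed the filter through CK alone. It was the 1 repressor called lower in 15AN. In the comparison with CK it had log2 fold changes of -1.60 ± 0.14 (SE, adjusted p = 8.5e-06) in 15A, -2.24 ± 0.14 (SE, adjusted p = 9.0e-07) in 15N, and -1.35 ± 0.14 (SE, adjusted p = 3.9e-05) in 15AN. The second gene annotated as IAA26-like, XLOC_091805, had 11.7, 7.07, and 7.57 FPKM in CK, 4.01, 0.503, and 0.489 in 15A, 4.72, 3.64, and 6.73 in 15N, and 9.28, 8.63, and 9.12 in 15AN. Its first 15A library lay apart from the other 15A libraries, all 3 of 15A lay below CK and 15AN, and the CK and 15AN libraries overlapped. It was down-regulated in 15A (-2.10 ± 0.42 SE, adjusted p = 0.002), and it was higher in 15AN than in 15A (2.16 ± 0.42 SE, adjusted p = 0.0029). Its call in 15N against 15A (1.4 ± 0.42 SE, adjusted p = 0.037) was lost without the second or the third 15A library (1.11 and 1.10) and without any 15N library (1.20 to 1.57).

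Further repressors were down-regulated in at least 1 of the single treatments. XLOC_036339 (IAA7-like) had 9.28, 12.4, and 15.7 FPKM in CK, 3.19, 4.19, and 4.33 in 15A, 2.26, 3.24, and 2.26 in 15N, and 5.02, 7.42, and 4.69 in 15AN. It had log2 fold changes of -1.44, -1.89, and -1.0 in 15A, 15N, and 15AN, of which the last was not called. XLOC_007747 (IAA8-like), the most abundant repressor in CK, had 74.2, 70.4, and 73.5 FPKM in CK, 34.6, 30.4, and 26.5 in 15A, 31.7, 31.4, and 32.9 in 15N, and 37.3, 38, and 39.8 in 15AN. Its log2 fold change was -1.23 ± 0.08 (SE, adjusted p = 1.6e-06) in 15A, -1.16 ± 0.08 (SE, adjusted p = 2.5e-06) in 15N, and -0.91 ± 0.08 (SE, adjusted p = 1.8e-05) in 15AN, and for both genes every treated library lay below every CK library. A pair annotated as auxin-induced protein 22D-like, a legume name for an Aux/IAA protein, shares 1 region on C4942445 on opposite strands, so reads of the pair could not be told apart if strand was not used in counting. XLOC_011767 had 16.3, 15.2, and 19 FPKM in CK, 6.19, 6.31, and 5.42 in 15A, 6.51, 7.56, and 6.26 in 15N, and 12.1, 11.6, and 13.4 in 15AN. XLOC_011764 had 23.2, 25.9, and 20.8 FPKM in CK, 7.12, 7.57, and 10.9 in 15A, 11, 11.2, and 11.5 in 15N, and 12.9, 18.2, and 13.9 in 15AN. The log2 fold changes in 15A, 15N, and 15AN were -1.35, -1.20, and -0.41 for the first and -1.37, -0.98, and -0.61 for the second. In both, every CK library lay above every treated one, and 15AN lay between CK and the single treatments. XLOC_008149 (IAA18-like) was lower in 15N than in CK (-1.17 ± 0.08 SE, adjusted p = 2.0e-06) and than in 15A (-1.02 ± 0.08 SE, adjusted p = 3.1e-05), the latter call being lost without the third 15A (-0.99) or the first 15N library (-0.93).

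One repressor went the other way. XLOC_027291, annotated as IAA1, had 35.6, 31.5, and 31 FPKM in CK, 64.7, 47.5, and 51.6 in 15A, 74.9, 69.3, and 74 in 15N, and 89.8, 84.6, and 96.8 in 15AN. The groups did not overlap, in the order CK, 15A, 15N, and 15AN. Against CK, the log2 fold change was 0.71 ± 0.11 (SE, adjusted p = 3.7e-04) in 15A, 1.13 ± 0.11 (SE, adjusted p = 1.7e-05) in 15N, and 1.44 ± 0.11 (SE, adjusted p = 5.1e-06) in 15AN. XLOC_027287 on the opposite strand of the same region (scaffold11570:14563-16666) was called higher in 15AN (1.09 ± 0.34 SE, adjusted p = 0.025), with a mean of 2.84 ± 0.498 FPKM in CK and 7.32 ± 2.0 in 15AN (SD, n = 3). That call was lost without the first or the third library of 15AN (0.98 and 0.99) or of CK (0.98 and 1.14). XLOC_027287 did not reach 5 FPKM in CK and passed the filter through treated groups only, so its direction against CK is no result. The 2 repressors up-regulated in 15AN are this pair, whose reads could not be told apart if strand was not used in counting.

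The ARF are the transcription factors that Aux/IAA repressors hold back. Of the 20 tested, 7 were down-regulated in 15A, 6 in 15N, and 4 in 15AN, while 0 were up-regulated in limma (2, 3, and 4 were higher at an unadjusted p under 0.05). Of the calls lower, 3, 2, and 3 were of genes that passed the filter through CK alone, so these were set by the filter. The median log2 fold change was -0.52, -0.47, and -0.32. XLOC_027619 (scaffold1164:76152-91023), annotated as like ARF19, an activator of lateral root formation in Arabidopsis, had 19.2, 20.4, and 19.8 FPKM in CK, 2.87, 3.78, and 3.47 in 15A, 3.52, 4.38, and 3.92 in 15N, and 4.53, 4.77, and 4.55 in 15AN. Its CK libraries lay far above the other 9. This gene and XLOC_144598, described next, passed the filter through CK alone, so their values against CK are a description. The log2 fold change was -2.26 ± 0.10 (SE, adjusted p = 8.4e-08) in 15A, -2.08 ± 0.10 (SE, adjusted p = 1.5e-07) in 15N, and -1.89 ± 0.10 (SE, adjusted p = 5.2e-07) in 15AN. XLOC_144598, annotated as ARF4, a repressing ARF in Arabidopsis, had 9.34, 9.75, and 8.6 FPKM in CK, 1.91, 1.47, and 1.97 in 15A, 2.17, 1.8, and 1.28 in 15N, and 3.38, 3.81, and 3.59 in 15AN. The CK libraries were again the highest and 15AN came next without overlap. Compared to CK, the log2 fold change was -1.88 ± 0.14 (SE, adjusted p = 2.9e-06) in 15A, -1.91 ± 0.14 (SE, adjusted p = 2.7e-06) in 15N, and -1.15 ± 0.14 (SE, adjusted p = 1.0e-04) in 15AN. XLOC_138220, annotated as ARF6, an activating ARF in Arabidopsis, had 24, 23, and 22.6 FPKM in CK, 7.64, 7.08, and 5.63 in 15A, 7.51, 7.98, and 7.67 in 15N, and 11.4, 13, and 11.5 in 15AN. The order of its groups was the same, with -1.65 ± 0.10 (SE, adjusted p = 6.3e-07) in 15A, -1.47 ± 0.10 (SE, adjusted p = 1.3e-06) in 15N, and -0.91 ± 0.10 (SE, adjusted p = 4.7e-05) in 15AN.

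XLOC_068279, annotated as ARF28, had 10.7, 11, and 11.6 FPKM in CK, 4.33, 3.83, and 4.08 in 15A, 4.76, 4.3, and 5.64 in 15N, and 8.28, 8.68, and 8.27 in 15AN. XLOC_039455 (ARF1-like) had 13.5, 14.2, and 14.8 FPKM in CK, 6.78, 7.02, and 5.56 in 15A, 5.58, 6.9, and 5.4 in 15N, and 10.4, 9.83, and 9.64 in 15AN. In both genes the 15AN libraries lay between CK and the single treatments. The log2 fold changes in 15A, 15N, and 15AN were -1.25, -1.04, and -0.36 for XLOC_068279 and -1.03, -1.13, and -0.47 for XLOC_039455, of which neither value in 15AN was called. The call of XLOC_039455 in 15A was lost without the third library of 15A (-0.94) or of CK (-1.0), and that of XLOC_068279 in 15N without the second 15N library (-0.96). The most abundant ARF, XLOC_053613, is annotated as like ARF2, a repressing ARF in Arabidopsis, and had 55.5, 57.4, and 63.3 FPKM in CK, 32.5, 24, and 22.5 in 15A, 32.3, 30.3, and 31.6 in 15N, and 40.7, 39.7, and 49 in 15AN. CK was highest and 15AN came next, without overlap, while 15A and 15N overlapped. It was down-regulated in 15A (-1.14 ± 0.13 SE, adjusted p = 4.9e-05) and had -0.88 ± 0.13 (SE, adjusted p = 3.0e-04) in 15N and -0.44 ± 0.13 (SE, adjusted p = 0.019) in 15AN, under the threshold of 1. XLOC_038844 (ARF18-like) had its lowest mean in 15N, with 19.6 ± 0.0529 FPKM (SD, n = 3) against 58.1 ± 0.908 in CK. Its log2 fold change was -0.92, -1.52, and -1.19 in 15A, 15N, and 15AN, of which the last 2 were called. XLOC_000945, a further ARF19-like gene, was down-regulated in 15A (-1.49 ± 0.16 SE, adjusted p = 3.7e-05) and in 15AN (-1.07 ± 0.16 SE, adjusted p = 4.5e-04), the latter call being lost without the first 15AN library (-0.99). This gene passed the filter through CK alone, so its direction against CK is no result.

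**Figure D4:**
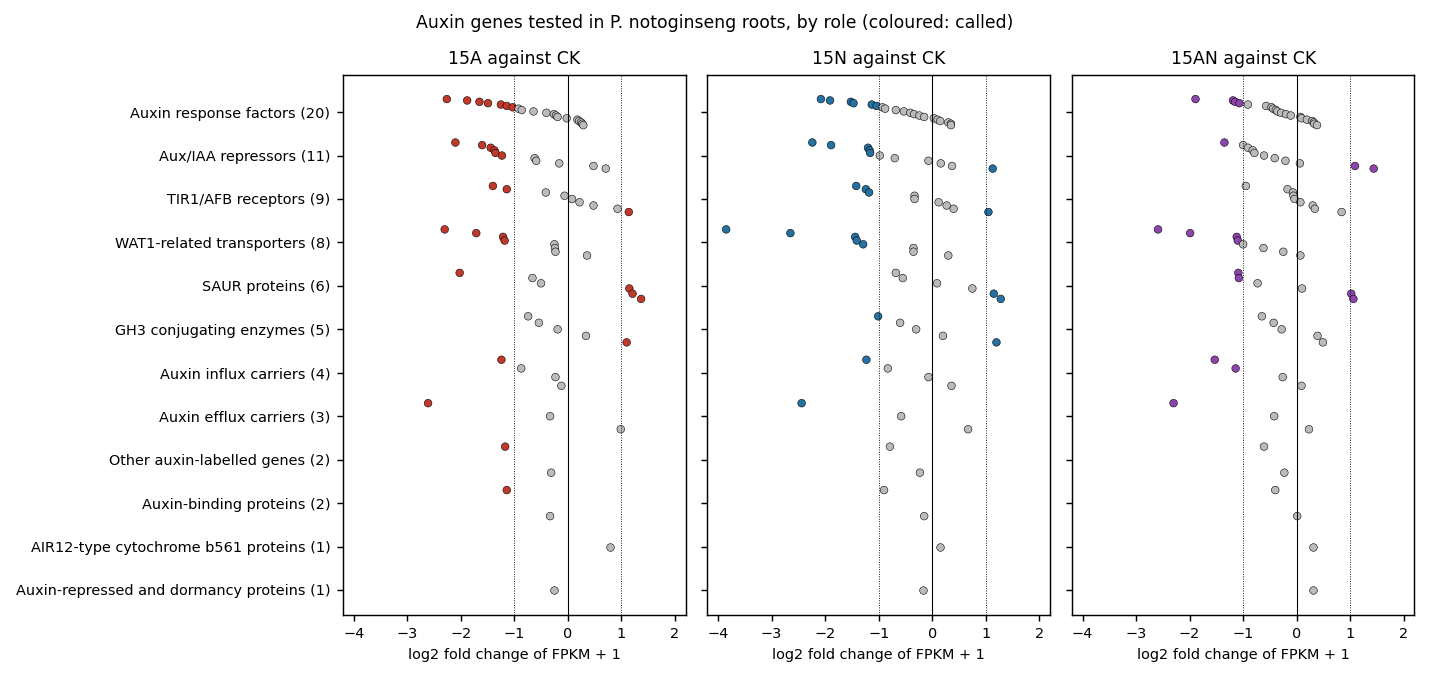
Log2 fold change of FPKM + 1 of each of the 72 tested auxin genes in 15A, 15N, and 15AN compared to CK, by role class, with called genes coloured, genes not called in grey, and dotted lines at the threshold of 1 in size. Points of the response factors, repressors, and WAT1-related transporters lie mostly left of 0, and the leftmost point in 15N is XLOC_129945 at -3.85.

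Most of the calls among transporters were in the WAT1-related genes. This family is known in Arabidopsis from WAT1, a vacuolar auxin transporter, but the substrate of most members is not known. Of the 8 tested, 4 were down-regulated in 15A, 5 in 15N, and 4 in 15AN, while 0 were up-regulated in limma (0 also at an unadjusted p under 0.05). XLOC_085716 and XLOC_055333 passed the filter through CK alone, so that 2 of the calls in each comparison were set by the filter. XLOC_129945 (scaffold6971:8415-13710), annotated as 5NG4, a gene first named as auxin-induced in pine, had 28.8, 26.7, and 29.7 FPKM in CK, 3.89, 5.23, and 5.98 in 15A, 1.42, 0.75, and 0.985 in 15N, and 4.18, 3.97, and 3.48 in 15AN. All groups were below CK without overlap and the 15N libraries were the lowest. In the comparison with CK it had log2 fold changes of -2.30 ± 0.15 (SE, adjusted p = 1.4e-06) in 15A, -3.85 ± 0.15 (SE, adjusted p = 5.3e-08) in 15N, and -2.59 ± 0.15 (SE, adjusted p = 1.1e-06) in 15AN. It was also lower in 15N than in 15A (-1.55 ± 0.15 SE, adjusted p = 9.6e-05) and higher in 15AN than in 15N (1.26 ± 0.15 SE, adjusted p = 2.4e-04). Its region overlaps that of another locus on the opposite strand. XLOC_085716, annotated as WAT1-related At4g08290, had 5.28, 7.22, and 4.2 FPKM in CK, 0.857, 0.989, and 1.1 in 15A, 0, 0.0971, and 0 in 15N, and 0.477, 1.06, and 0.411 in 15AN. It was listed at 0 in 2 of the 3 libraries of 15N and all CK libraries lay above all others. Against CK, the log2 fold change was -1.71 ± 0.24 (SE, adjusted p = 1.9e-04) in 15A, -2.65 ± 0.24 (SE, adjusted p = 9.7e-06) in 15N, and -1.99 ± 0.24 (SE, adjusted p = 8.8e-05) in 15AN.

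XLOC_140358 (WAT1-related At5g40240-like) had 10.9, 11.3, and 12.1 FPKM in CK, 4.89, 4.52, and 3.8 in 15A, 3.49, 4.13, and 3.18 in 15N, and 4.94, 5.78, and 4.97 in 15AN. XLOC_055333 (At2g37460-like) had 5.9, 5.39, and 4.53 FPKM in CK, 2.18, 1.53, and 1.6 in 15A, 1.45, 1.56, and 1.65 in 15N, and 2.04, 1.89, and 1.68 in 15AN. Both had their CK libraries above all treated ones. The log2 fold changes in 15A, 15N, and 15AN were -1.21, -1.44, and -1.0 for XLOC_140358, of which the last was just under the threshold, and -1.18, -1.29, and -1.12 for XLOC_055333. XLOC_005299 (At1g21890-like) had 12.2, 11, and 12.2 FPKM in CK, 5.36, 12.4, and 14.1 in 15A, 3.43, 3.47, and 4.66 in 15N, and 5.14, 4.8, and 5 in 15AN. Its first 15A library lay just above 15AN while the other 15A libraries lay just above CK, and it was down-regulated in 15N (-1.41 ± 0.27 SE, adjusted p = 0.0015) and 15AN (-1.10 ± 0.27 SE, adjusted p = 0.0071) but had -0.23 ± 0.27 (SE, adjusted p = 0.49) in 15A. Its call in 15N against 15A (-1.17 ± 0.27 SE, adjusted p = 0.011) was lost without the third 15A library (-0.94). The most abundant member of the family, XLOC_084971, also annotated as 5NG4, had 10.7, 11.8, and 12.2 FPKM in CK, 18.1, 12.2, and 15.5 in 15A, 12.9, 18.4, and 12.7 in 15N, and 11.5, 10.6, and 14.7 in 15AN and was not called in any comparison.

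Carriers of auxin across the plasma membrane gave few calls. Of 10 genes annotated as efflux carriers, 3 were tested. XLOC_123577, annotated as a partial efflux carrier of 1 short region (scaffold5856:22127-22591), had 5.35, 6.48, and 3.81 FPKM in CK, 0 in each library of 15A, 0, 0.42, and 0 in 15N, and 0.372, 0.385, and 0 in 15AN. All 3 CK libraries were above the others, the 3 libraries of 15A were listed at 0, and the gene passed the filter through CK alone. It was called lower in 15A (adjusted p = 3.1e-05), 15N (adjusted p = 5.3e-05), and 15AN (adjusted p = 0.0001), and no fold is given because most treated libraries are listed at 0. XLOC_141150, annotated as an efflux carrier family protein, had 35.3, 37.5, and 33.4 FPKM in CK, 70.1, 71.8, and 72.3 in 15A, 59.9, 52.8, and 58.7 in 15N, and 40.4, 41, and 43.1 in 15AN. The treated libraries all lay above those of CK. The log2 fold change was 0.99 ± 0.07 (SE, adjusted p = 1.3e-06) in 15A, 0.67 ± 0.07 (SE, adjusted p = 1.7e-05) in 15N, and 0.23 ± 0.07 (SE, adjusted p = 0.018) in 15AN, each under the threshold. XLOC_031426, annotated as like PIN3, had -0.33 ± 0.14 (SE, adjusted p = 0.07) in 15A, -0.58 ± 0.14 (SE, adjusted p = 0.0059) in 15N, and -0.42 ± 0.14 (SE, adjusted p = 0.03) in 15AN and was not called.

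Of the 12 influx carrier genes, 4 were tested. XLOC_080242 (AUX1/LAX type, annotated as auxin transporter-like protein 4) had 9.99, 10.4, and 10.2 FPKM in CK, 2.4, 4.81, and 4.43 in 15A, 4.06, 4.28, and 3.08 in 15N, and 2.54, 3.65, and 2.56 in 15AN. CK was above all other libraries. Compared to CK, the log2 fold change was -1.24 ± 0.20 (SE, adjusted p = 5.7e-04) in 15A, -1.23 ± 0.20 (SE, adjusted p = 6.1e-04) in 15N, and -1.53 ± 0.20 (SE, adjusted p = 1.8e-04) in 15AN. The call in 15A was lost without the first 15A library (-1.0), the library that stood apart in its markers. XLOC_121857, also annotated as an influx carrier, had 7.23, 7.25, and 7.08 FPKM in CK, 2.33, 3.92, and 4.44 in 15A, 3.32, 3.84, and 3.67 in 15N, and 2.38, 3.5, and 2.4 in 15AN. It was down-regulated in 15AN (-1.14 ± 0.18 SE, adjusted p = 6.4e-04) and had -0.87 in 15A and -0.83 in 15N, under the threshold. Both XLOC_080242 and XLOC_121857 passed the filter through CK alone, so their direction against CK is no result. The most abundant influx carrier, XLOC_122111 (auxin transporter-like protein 2), had 22.9, 29.3, and 26.7 FPKM in CK, 18.7, 26.8, and 27.4 in 15A, 38.7, 35.1, and 28.8 in 15N, and 28.4, 26, and 29.8 in 15AN. Its groups overlapped and it was not called in any comparison.

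The GH3 enzymes, which attach amino acids to auxin, gave a gene up-regulated with either form alone. XLOC_061974, annotated as GH3.1, had 13.8, 14.4, and 14 FPKM in CK, 26.1, 34, and 34.7 in 15A, 33.7, 30.8, and 36.6 in 15N, and 19.4, 19, and 17.8 in 15AN. All treated libraries lay above all CK libraries, and those of 15AN lay below all libraries of 15A and 15N. In the comparison with CK it had log2 fold changes of 1.10 ± 0.10 (SE, adjusted p = 1.4e-05) in 15A, 1.20 ± 0.10 (SE, adjusted p = 8.3e-06) in 15N, and 0.39 ± 0.10 (SE, adjusted p = 0.012) in 15AN. The second gene annotated as GH3.1, XLOC_146300, had 22.3, 22.5, and 23.2 FPKM in CK, 11.9, 13, and 14.8 in 15A, 9.66, 10.6, and 12.1 in 15N, and 14.7, 13.8, and 13.8 in 15AN. It was down-regulated in 15N (-1.01 ± 0.09 SE, adjusted p = 1.1e-05), a call lost without the first 15N library (-0.94) or the third CK library (-1.0), and had -0.74 in 15A and -0.65 in 15AN. The other 3 GH3 genes tested were not called in any comparison.

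**Figure D5:**
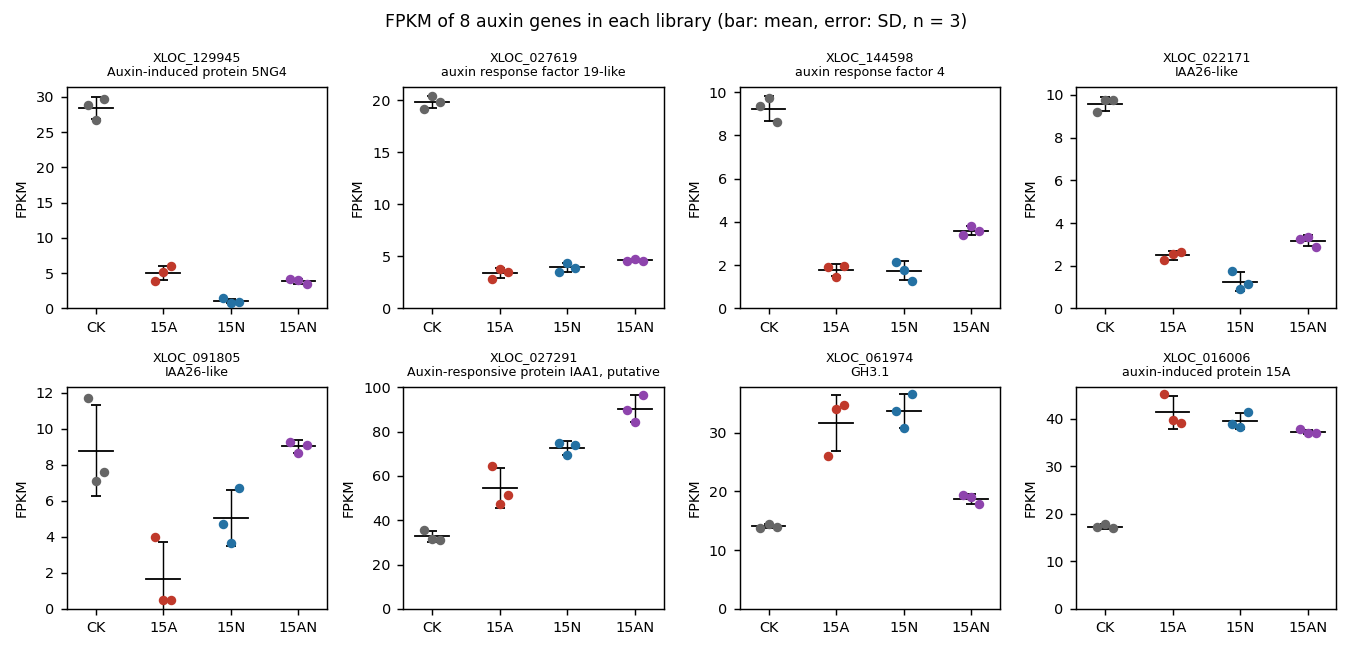
FPKM of 8 auxin genes of different roles in each library (points), with the mean (bar) and the SD (error bar) of the 3 libraries of CK, 15A, 15N, and 15AN, on a separate axis from 0 for each gene. XLOC_129945, XLOC_027619, XLOC_144598, and XLOC_022171 are highest in CK, XLOC_027291 is highest in 15AN, and XLOC_061974 is highest in 15A and 15N. XLOC_027619, XLOC_144598, and XLOC_022171 passed the filter through CK alone.

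SAUR genes encode small proteins that auxin induces early and that promote cell expansion in Arabidopsis. Of the 6 tested, 3 were up-regulated and 1 down-regulated in 15A, 2 up-regulated and 0 down-regulated in 15N (1 lower at an unadjusted p under 0.05 in limma), and 2 up-regulated and 2 down-regulated in 15AN. XLOC_016006, whose database name auxin-induced protein 15A has nothing to do with the treatment of that name, had 17.1, 17.9, and 16.9 FPKM in CK, 45.2, 39.7, and 39 in 15A, 38.8, 38.2, and 41.4 in 15N, and 37.8, 36.9, and 37 in 15AN. Every treated library was above every CK library. Against CK, the log2 fold change was 1.21 ± 0.07 (SE, adjusted p = 3.9e-07) in 15A, 1.15 ± 0.07 (SE, adjusted p = 5.6e-07) in 15N, and 1.06 ± 0.07 (SE, adjusted p = 1.6e-06) in 15AN. XLOC_016005, of the same name and in the same region of the table (C4961653:790-24237), had 7.1, 6.5, and 7.16 FPKM in CK, 17.6, 16.1, and 16.1 in 15A, 19, 17, and 18.6 in 15N, and 15.5, 14.9, and 14.8 in 15AN. Its log2 fold changes were 1.15, 1.28, and 1.02 in the same 3 comparisons. As both share their region with other loci, the split of reads between them is uncertain, and the call of XLOC_016005 in 15AN was lost without the second CK library (0.98).

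The other SAUR genes called did not share a direction, and 1 of the 6 tested was called in 15N against 15A. XLOC_003505, annotated as auxin-induced protein 6B-like, had 1.45, 1.24, and 2.2 FPKM in CK, 5.34, 5.68, and 6.2 in 15A, 3.31, 3.87, and 2.98 in 15N, and 0.286, 0.592, and 0.871 in 15AN. The libraries were ordered 15A, 15N, CK, and 15AN without overlap. It was up-regulated in 15A (1.37 ± 0.19 SE, adjusted p = 1.8e-04), and it was lower in 15AN than in 15A (-2.10 ± 0.19 SE, adjusted p = 2.5e-05) and than in 15N (-1.48 ± 0.19 SE, adjusted p = 3.1e-04). XLOC_003505 passed the filter through 15A alone and had to be highest there. Its direction in 15A against CK and in 15AN against 15A is therefore no result. XLOC_004297 (X15-like) had 28.4, 25.5, and 34.1 FPKM in CK, 9.03, 3.95, and 7.17 in 15A, 21, 21.3, and 16.8 in 15N, and 16.9, 10.5, and 12.8 in 15AN. It was lowest in 15A without overlap, down-regulated in 15A (-2.02 ± 0.25 SE, adjusted p = 8.8e-05) and in 15AN (-1.09 ± 0.25 SE, adjusted p = 0.0053), and higher in 15N than in 15A (1.48 ± 0.25 SE, adjusted p = 0.0025). The call in 15AN was lost without the second 15AN library (-0.94) or the third CK library (-0.98). XLOC_072942 (X15-like) had 5.12, 5.47, and 6.32 FPKM in CK, 3.35, 2.88, and 3.33 in 15A, 3.9, 2.28, and 3.38 in 15N, and 2.02, 2.32, and 2.05 in 15AN. Its CK libraries lay above all others, and it was down-regulated in 15AN (-1.08 ± 0.15 SE, adjusted p = 3.0e-04). XLOC_072942 passed the filter through CK alone, so its direction against CK is no result.

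Among the remaining members, XLOC_009767, annotated as T85, a protein that binds auxin, had 42.7, 36.9, and 40.6 FPKM in CK, 22, 14.7, and 16.7 in 15A, 21.1, 20.6, and 21.1 in 15N, and 32.2, 31.2, and 26.8 in 15AN. It was down-regulated in 15A (-1.14 ± 0.13 SE, adjusted p = 4.6e-05) and had -0.90 in 15N and -0.40 in 15AN, under the threshold. XLOC_021193, annotated as AUXIN RESPONSE 4, which in Arabidopsis helps the influx carrier AUX1 to reach the plasma membrane, had 10.3, 12.4, and 11.7 FPKM in CK, 4.96, 4.26, and 4.42 in 15A, 7.03, 5.65, and 5.89 in 15N, and 6.75, 7.65, and 7.05 in 15AN. It was down-regulated in 15A (-1.17 ± 0.10 SE, adjusted p = 8.6e-06) and had -0.79 in 15N and -0.61 in 15AN. For both genes every treated library lay below every CK library. XLOC_145003, annotated as the auxin transport protein BIG, had 8.26, 7.43, and 8.13 FPKM in CK, 3.22, 8.33, and 8.44 in 15A, 6.94, 6.8, and 6.13 in 15N, and 6.53, 6.75, and 6.55 in 15AN. The first 15A library lay far below the other 2 of its group, and the gene was not called. XLOC_031761, annotated as AIR12, an auxin-induced cytochrome b protein of root cultures, had 17.9, 21.3, and 21.4 FPKM in CK, 29, 40.9, and 37.2 in 15A, 24, 19.1, and 24.7 in 15N, and 23.5, 24.3, and 27.8 in 15AN and was not called.

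The treatments were also compared with each other. In 15N against 15A, where 4.59% of all loci were called, 2 of the 72 auxin genes were higher (2.78%, against 1.96% of all loci) and 3 lower (4.17%, against 2.63%). In 15AN against 15A, where 7.83% of all loci were called, 2 were higher (2.78%, against 3.18%) and 2 lower (2.78%, against 4.64%). In 15AN against 15N, 3 were higher (4.17%, against 2.8%) and 1 lower (1.39%, against 3.39%). These shares were near those of all loci or below them, and the genes are among those named above, the receptor XLOC_008244 being called higher in 15AN against each single treatment. The median log2 fold change of the 72 was -0.02, 0.11, and 0.17, against -0.02, -0.02, and 0.00 for all loci. At equal totals, 2 were higher and 2 lower in 15N against 15A (2.25% and 2.02% of all loci), 10 higher and 1 lower in 15AN against 15A (6.39% and 2.64%), and 5 higher and 1 lower in 15AN against 15N (4.43% and 2.43%). The 10 are 13.9% of the auxin genes, a share above that of all loci. The medians of all loci were then 0.07, 0.29, and 0.22.

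Whether nitrate acts differently with ammonium present was asked of the interaction, which is the change from 15A to 15AN less the change from CK to 15N. Nitrate was given as a calcium salt in 15N and as ammonium nitrate in 15AN, so the salts differ between these changes. Of the 72 auxin genes, 26 had a positive interaction (36.1%, against 10.2% of all loci) and 7 a negative one (9.72%, against 12.3%), and the median was 0.49 against -0.08 for all loci. Because CK enters the interaction with a plus sign, genes that passed the filter through CK alone are moved towards positive values by it, and 7 of those 12 are among the 26. With the filter on the mean over all libraries, 19 of 59 were positive (32.2%, against 7.94% of all loci) and 6 negative (10.2%, against 12.5%). Of all 72, the ARF had 8 positive and 0 negative calls among 20 genes (1 negative at an unadjusted p under 0.05 in limma), the Aux/IAA repressors 6 and 0 among 11 (1), and the WAT1-related genes 4 and 0 among 8 (1). XLOC_129945 had the largest positive value (3.56 ± 0.22 SE, adjusted p = 7.9e-07), with a log2 fold change by nitrate of -3.85 without ammonium and -0.29 with it. For the receptor XLOC_008244 nitrate gave -1.18 without ammonium and 1.21 with it (interaction 2.39 ± 0.15 SE, adjusted p = 8.6e-07). For GH3.1 (XLOC_061974) it gave 1.20 without and -0.71 with ammonium (interaction -1.92 ± 0.15 SE, adjusted p = 4.1e-06), and for the SAUR XLOC_003505 it gave 0.75 and -2.10 (interaction -2.86 ± 0.27 SE, adjusted p = 1.5e-05). XLOC_003505 passed the filter through 15A alone, and 15A enters with a minus sign, which moves its value towards negative. At equal totals, 47 interactions were positive (65.3%, against 33% of all loci) and 2 negative (2.78%, against 4.36%), and the median of all loci was 0.72.

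Genes that act in the same pathway but that the rule does not take were listed separately, with earlier results of these data known. A list of 98 loci of PIN-directing kinases, ABCB transporters, TOPLESS corepressors, SCF subunits, auxin amide hydrolases, flavin monooxygenases, tryptophan aminotransferases, and lateral root regulators held 46 tested genes. Of these, 3 were up-regulated in 15A (6.52%, against 7.49% of all loci) and 1 down-regulated (2.17%, against 6.82%). In 15N, 4 were up-regulated (8.7%, against 6.85%) and 1 down-regulated (2.17%, against 7.64%). In 15AN, 4 were up-regulated (8.7%, against 5.3%) and 3 down-regulated (6.52%, against 6.93%). The median log2 fold change was 0.12, 0.09, and 0.15. XLOC_016641, annotated as topless-related protein 3, a corepressor that Aux/IAA proteins recruit, had 0.725, 0.514, and 0.368 FPKM in CK, 3.79, 0.721, and 0.677 in 15A, 12.9, 14.7, and 14.8 in 15N, and 14.2, 14.8, and 14.7 in 15AN. All libraries of 15N and 15AN lay far above those of CK and 15A. The log2 fold change was 0.65 ± 0.33 (SE, adjusted p = 0.13) in 15A, 3.30 ± 0.33 (SE, adjusted p = 2.2e-05) in 15N, and 3.35 ± 0.33 (SE, adjusted p = 2.8e-05) in 15AN. XLOC_090875, annotated as like PINOID, the kinase that directs PIN carriers in the cell, had 1.36, 2.8, and 2.29 FPKM in CK, 0 in each library of 15A, 6.21, 4.54, and 4.66 in 15N, and 0, 0, and 0.545 in 15AN. It was highest in 15N and listed at 0 in 5 of the 6 libraries with ammonium. As it passed the filter through 15N alone, with a mean of 5.14 FPKM there, it had to be highest in that group. Other loci annotated as PINOID did not share its pattern. In CK, 15A, 15N, and 15AN, the means were 8.2, 13.6, 9.56, and 14.2 FPKM for XLOC_136949 and 4.28, 5.42, 3.66, and 5.78 for XLOC_125087. Below the filter, they were 0, 3.92, 2.37, and 0 for XLOC_098534 and 0.372, 0.573, 0.606, and 0.511 for XLOC_122824. XLOC_020578, annotated as like ILR1, which releases auxin from amino acid conjugates, had 19.6, 20.9, and 19.8 FPKM in CK, 14.5, 13.7, and 12 in 15A, 6.69, 8.6, and 7.52 in 15N, and 8.23, 8.62, and 7.36 in 15AN. Its log2 fold change was -1.30 ± 0.10 (SE, adjusted p = 3.3e-06) in 15N and -1.22 ± 0.10 (SE, adjusted p = 7.5e-06) in 15AN. In both comparisons, it was the 1 gene called among 5 hydrolases tested, and XLOC_016641 was the 1 called among 6 TOPLESS genes tested.

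Some members lie next to each other. Where members within 50000 nt of each other on a scaffold are joined, 46 of the 212 fall into 19 clusters, each of 1 role class. Proximity does not show that they are copies, and 8 members lie in 4 regions whose coordinates they share with another member. SAUR genes make up 9 of the clusters with 23 members, of which 2 passed the filter. The largest holds 7 SAUR genes on C4961653, where XLOC_016005 and XLOC_016006 are the pair described above and the other 5 were listed at 0 in all 12 libraries. Descriptions were shared too, since 92 members have the same first database protein as another member. The regions of 30 members, 23 of them tested, overlap another locus. Among the 49 tested members whose region overlaps no other locus, a subset chosen after seeing the data, 17 were down-regulated in 15A (34.7%, against 6.82% of all loci), 15 in 15N (30.6%, against 7.64%), and 11 in 15AN (22.4%, against 6.93%), while 3, 2, and 0 were up-regulated (7 higher in 15AN at an unadjusted p under 0.05 in limma). This subset was not cleared of genes that passed the filter through CK alone, so its shares called lower are in part set by the filter. Over all 72 genes, 10 of the 14 down-regulated in 15AN were of that kind.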

How the data were processed

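Gene expression was measured by RNA-seq in 12 libraries of P. notoginseng roots. Per the labels and the study's methods, the authors aligned reads to the published P. notoginseng genome with TopHat2 2.0.13, assembled loci with Cufflinks 2.2.1, and deposited 1 FPKM value per locus and library, normalized with Cuffnorm 2.2.1. Whether counting used strand is not given in the sources used here. Coordinates are printed as the table gives them.

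Auxin genes were taken by patterns in the first protein description, 212 of the 215 that match anywhere in that cell, and 208 overlap an annotated gene model. The members, role classes, and lists were chosen with earlier results of these data known. Loci whose mean reached 5 FPKM in any group were kept, and log2(FPKM + 1) was fitted over the 4 groups in R 4.3.3 using limma 3.58.1 with a variance trend. Tests are two-sided with Benjamini-Hochberg adjustment over 22592 loci. The fit was tested on simulated data. Depth is unknown from FPKM, so precision rests on the spread of 3 libraries. Alternatives changed the pseudocount, filter, scaling, fit, threshold, and libraries. Named genes are those called in at least 1 comparison (values per library for up to 6 per class with the largest change), the most abundant of each class, the auxin-repressed protein gene, all genes called in the interaction, and up to 8 called genes of the other pathway list.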

Additional observations from a re-analysis of the deposited data

Results flagged for a closer look

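In groups of 3 no library can be tested as an outlier. What stood out was that the effect of nitrate differed with ammonium present, by the interaction of limma (adjusted p under 0.05 and over 1 in size), in 33 of the 72 auxin genes tested, where 22.5% of all loci were called. Each value below is the log2 fold change of 15AN against 15A less that of 15N against CK, and no cause was tested. In the ARF it was 2.63 for XLOC_144598, 2.44 for XLOC_027619, 2.22 for XLOC_138220, 1.93 for XLOC_068279, 1.69 for XLOC_039455, 1.58 for XLOC_053613, 1.35 for XLOC_000945, and 1.25 for XLOC_038844. In the Aux/IAA repressors it was 2.86 for XLOC_091805, 2.5 for XLOC_022171, 2.33 for XLOC_036339, 2.13 for XLOC_011767, 1.74 for XLOC_011764, and 1.49 for XLOC_007747. These are the genes called among the 20 ARF and 11 repressors tested. XLOC_144598, XLOC_027619, XLOC_000945, and XLOC_022171 passed the filter through CK alone, which moves their value towards positive, as it does for XLOC_085716, XLOC_055333, and XLOC_123577 below.

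In the receptors the values were 2.39 for XLOC_008244, 1.87 for XLOC_123567, 1.58 for XLOC_061475, -1.34 for XLOC_023984, and -1.36 for XLOC_007196, so both signs occur. That of XLOC_061475 was no longer called without the second library of 15A, 15N, or 15AN or the third of CK (1.37 to 1.5). The WAT1-related transporters had 3.56 for XLOC_129945, 2.36 for XLOC_085716, 1.65 for XLOC_140358, and 1.35 for XLOC_055333. The efflux carriers had 2.75 for XLOC_123577, which is listed at 0 in most treated libraries so that its value depends on the 1 added before the log2, and -1.44 for XLOC_141150. The SAUR genes had 1.48 for XLOC_004297, -1.29 for XLOC_016006, -1.41 for XLOC_016005, and -2.86 for XLOC_003505, and the GH3 genes 1.11 for XLOC_146300 and -1.92 for XLOC_061974. XLOC_003505 passed the filter through 15A alone, which moves its value towards negative. The auxin-binding protein XLOC_009767 had 1.64, and XLOC_021193, annotated as AUXIN RESPONSE 4, had 1.35. With every library scaled to the same total FPKM, the median of all loci was 0.72. Negative values no longer called then were -0.49 for XLOC_023984, -0.55 for XLOC_007196, -0.59 for XLOC_141150, -0.61 for XLOC_016005, and -0.45 for XLOC_016006. Calls on that scale were 47 positive and 2 negative.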

How the results depend on the processing

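Counts are of auxin genes called, and against CK the main counts higher and lower were 5 and 24 for 15A, 5 and 22 for 15N, and 4 and 14 for 15AN. They were 2 and 3 in 15N against 15A, 2 and 2 in 15AN against 15A, 3 and 1 in 15AN against 15N, and 26 and 7 in the interaction. No called value of a named gene changed direction under any alternative. A pseudocount of 5 gave 2 and 11 for 15A, 2 and 11 for 15N, and 1 and 3 for 15AN against CK (the 3 are 4.17%, against 3.84% of all loci), 1 and 0 in 15N against 15A (15 lower at an unadjusted p under 0.05 in limma), 1 and 0 in 15AN against 15A (11 lower), and 0 and 0 in 15AN against 15N (27 higher and 11 lower), a setting that by construction makes fold changes of low genes smaller. A pseudocount of 0.1 gave 5 higher in 15AN against 15A and 7 in 15AN against 15N. Without a filter, more genes were tested, and 37 were lower for 15A, 37 for 15N, and 24 for 15AN against CK, 2 lower in 15AN against 15N, 1 higher in 15N against 15A, and 40 higher in the interaction. A mean of at least 10 FPKM, with fewer genes tested, left 6 lower in 15AN against CK, 1 higher in 15N against 15A, 1 higher and 1 lower in 15AN against 15A, and 0 lower in 15AN against 15N (6 at an unadjusted p under 0.05). With the mean over all libraries, which kept 2 of the 12 genes that passed through CK alone, it was 6 lower in 15AN against CK, 1 lower in 15AN against 15A, and 0 lower in 15AN against 15N (8 at an unadjusted p under 0.05). The same total gave 0 higher in 15A (7 at an unadjusted p under 0.05), 0 higher in 15N (5), 35 lower in 15N, 1 higher in 15AN, 10 higher and 1 lower in 15AN against 15A, 5 higher in 15AN against 15N, and 47 higher and 2 lower in the interaction. The fit of the groups compared and an adjusted p under 0.01 each gave 1 higher in 15N against 15A. Without overlapping regions, 3 were higher for 15A, 2 for 15N, and 0 for 15AN against CK (7 at an unadjusted p under 0.05), 1 higher in 15AN against 15N, and 4 lower in the interaction. Leaving out 1 library gave 1 to 2 higher and 1 to 4 lower in 15N against 15A, with 1 higher without replicate 2 or 3 of CK or 15A or any replicate of 15N or 15AN, and 1 lower without replicate 3 of 15A. All other counts stayed within 1.5 times under each library left out, such as 22 to 24 genes lower for 15A against CK. Replicate numbers did not pair the libraries, as deviations of same-numbered libraries correlated at -0.0998 to 0.0505 over 18 pairs, and a fit with the replicate block gave the main counts in all comparisons. Without counts, the depth behind low values is unknown, and genes near 5 FPKM or a log2 fold change of 1 are those whose calls are least certain.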
